A study of Mus musculus with 24 samples.

Results

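The dystrophin-glycoprotein complex was followed as mRNA through myotube formation and glucocorticoid treatment of C2C12, an established mouse myoblast line whose cells stop dividing and fuse into myotubes in low serum. The genes described are 8 named members of the complex: Dmd (dystrophin), Utrn (utrophin), Dag1 (dystroglycan), Sgca, Sgcb and Sgcd (alpha-, beta- and delta-sarcoglycan), Dtna (alpha-dystrobrevin) and Sspn (sarcospan). They were chosen by name from the 48544 genes in both deposited tables, with earlier results of these data known. All 8 passed the filter on low values. The 24 libraries, made from polyadenylated RNA with a stranded kit, fall into 6 groups of 4. Day 7 myotubes were compared with day 0 myoblasts, and dexamethasone-treated myotubes with vehicle-treated myotubes after 24 h and after 72 h, which are day 8 and day 10. The cells are labelled wild type throughout. Day 0 myoblasts were grown in 10% serum, and the 5 other groups in 2%. Dexamethasone, a synthetic glucocorticoid, was given at 100 µM, and the vehicle medium held 1% ethanol. The labels do not say whether the dexamethasone medium held ethanol too, and they do not state that replicates came from different cultures. The p-values therefore reflect only how far these libraries vary, and that variation could be technical.

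The complex joins the actin cytoskeleton of a muscle fibre to the basement membrane around it. Dystrophin binds actin at one end and the membrane-spanning part of dystroglycan at the other, and the sugar-coated extracellular part of dystroglycan binds laminin. The sarcoglycans and sarcospan sit beside dystroglycan in the membrane, and dystrobrevin and the syntrophins gather signalling proteins such as neuronal nitric oxide synthase on the inside. Utrophin, the autosomal relative of dystrophin, holds its place before and during muscle formation and at the neuromuscular junction of adult fibres. Loss of dystrophin causes Duchenne muscular dystrophy, and loss of a sarcoglycan causes limb-girdle dystrophy. Dexamethasone belongs to the drug class used to treat Duchenne patients, and its best known effect on cultured myotubes is the induction of atrophy genes.

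Levels are given in TPM, a unit that sums to 1000000 in each library, which are scaled by transcript length and so can be compared between genes. They are gene totals, so the full-length and the shorter products of the Dmd gene are not told apart. Log2 differences come from limma on the other deposited table, whose values are shrunken (slopes of 0.57 to 0.69 on TPM differences over the 7 comparisons), so they understate fold changes. A gene was called higher or lower at an adjusted p under 0.05 over 16257 genes.

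The 6 genes that mark myotubes (Myog, Myh3, Ckm, Acta1, Tnnt3 and Mymk) summed to 5890 to 6750 TPM per library in day 7 myotubes and 161 to 267 TPM in day 0 myoblasts, and to 7090 to 13400 TPM in the treated and vehicle libraries. Adipocyte markers summed to at most 0.189 TPM, endothelial markers to at most 0.0899, Schwann cell markers to at most 1.05, and macrophage and blood markers to at most 4.61. The 3 smooth muscle markers summed to 39.3 to 71.5 TPM in all groups. Of these, 1 was under 0.5 TPM throughout each group up to 24 h. At 72 h 2 were, so there the sum rests on the remaining marker. Of 3 macrophage and blood markers, 2 were under 0.5 TPM throughout each group. Depth is unknown, since neither table keeps it, and between 12428 and 13030 genes per library reached 1 TPM. Dexamethasone replicate 1 at 72 h stands apart, and vehicle replicate 1 at 72 h less clearly so. The other 3 dexamethasone libraries held 17 genes at or under 4% of the lowest vehicle level, and in dexamethasone replicate 1 these reached 19.1% (median) of what vehicle replicate 1 had. With the groups exchanged, vehicle replicate 1 held 18 such genes, at 13.6% (median) of what dexamethasone replicate 1 had. The same check found 4 to 6 genes for each other dexamethasone library at 72 h, with medians of 0%. For the other vehicle libraries it found 2 to 4 genes each, with medians of 21.3% to 128%. Each count rests on the other 3 libraries of the group. For replicates 2 to 4 these include replicate 1, so the counts alone do not set vehicle replicate 1 apart. Calls made for members at 72 h, and ratio differences between dexamethasone and vehicle at 72 h, are therefore given with and without both replicate 1 libraries. Other values at 72 h are from all libraries unless stated.

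The promoter windows of 4 members are shown because their genes behaved differently in differentiation: Dmd and Sgca had the largest differences among the 8, and Sgcb and Dag1 had substantial levels already in myoblasts. Each window runs from 250 bases before to 50 after an annotated start in RefSeq, build GRCm38.p6, 5′ to 3′ on the gene's strand. Capitals mark matches on either strand to an E-box (CANNTG), the motif of the MyoD family, a CArG box, the motif of serum response factor, or a MEF2 site. The Dmd window lies at chrX:82948620-82948919 on the plus strand, Sgca at chr11:94976278-94976577, Sgcb at chr5:73647688-73647987 and Dag1 at chr9:108263909-108264208, all 3 on the minus strand.
Dmd: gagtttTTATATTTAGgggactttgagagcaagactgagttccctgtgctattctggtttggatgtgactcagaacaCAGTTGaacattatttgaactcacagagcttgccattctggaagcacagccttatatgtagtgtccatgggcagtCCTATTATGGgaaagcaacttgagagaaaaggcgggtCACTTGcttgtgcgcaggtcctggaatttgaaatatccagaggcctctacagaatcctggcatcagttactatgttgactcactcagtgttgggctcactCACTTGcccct
Sgca: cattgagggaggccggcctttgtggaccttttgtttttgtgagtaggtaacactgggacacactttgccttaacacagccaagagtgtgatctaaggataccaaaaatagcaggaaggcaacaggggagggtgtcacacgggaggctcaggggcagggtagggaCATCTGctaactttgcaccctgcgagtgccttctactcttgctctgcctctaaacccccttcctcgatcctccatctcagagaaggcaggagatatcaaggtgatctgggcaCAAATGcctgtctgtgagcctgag
Sgcb: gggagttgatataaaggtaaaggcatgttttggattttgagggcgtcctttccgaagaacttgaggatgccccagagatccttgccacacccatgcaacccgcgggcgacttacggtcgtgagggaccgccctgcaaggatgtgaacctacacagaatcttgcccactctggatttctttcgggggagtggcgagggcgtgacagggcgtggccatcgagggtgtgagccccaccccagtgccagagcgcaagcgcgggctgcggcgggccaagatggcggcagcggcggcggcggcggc
Dag1: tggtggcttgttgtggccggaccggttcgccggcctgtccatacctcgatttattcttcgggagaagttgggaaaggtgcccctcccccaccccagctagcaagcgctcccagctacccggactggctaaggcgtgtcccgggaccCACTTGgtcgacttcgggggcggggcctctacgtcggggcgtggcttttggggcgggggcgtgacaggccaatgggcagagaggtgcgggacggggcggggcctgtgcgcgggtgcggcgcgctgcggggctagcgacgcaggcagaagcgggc

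The Dmd window held 5 matches: a MEF2 site at −244, E-boxes at −173, −61 and 40, and a CArG box at −98, counted from 1 at the start with no position 0. Sgca held E-boxes at −86 and 27, Dag1 held an E-box at −104, and Sgcb held none of these motifs. An E-box occurred in 72.3% of the 32851 mouse windows of this length in the table, so its presence says little by itself, while a CArG box occurred in 1.63% and a MEF2 site in 3.19%. The windows also differed in CpG content. Dmd and Sgca held 2 and 4 CpG dinucleotides, against 24 in Sgcb and 30 in Dag1, with a median of 7 over the table. In the windows not shown, Utrn held 2, Sspn 2 and 8, and Sgcd 12, and these members did not pass the differentiation test. Windows of a second Dmd start and a second Dag1 start held 14 and 47. A low CpG count was thus not particular to the members with the largest differences. The table held 10 windows for 7 of the members and none for Dtna, whose motifs are therefore not known here. Among these 10, no CArG box or MEF2 site was found outside the Dmd window shown, and Utrn held the most E-boxes, with 7. AGAACA, the glucocorticoid receptor motif in its short form, matched at −179 in the Dmd window shown and at −137 in the window of a second annotated Dmd start. It matched in no window of the other members that had one. It occurred in 19.0% of windows, and the longer palindromic glucocorticoid receptor motif was found in 0 of the 10. These matches describe the letters in the windows and carry no evidence of binding.

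**Figure D1:**
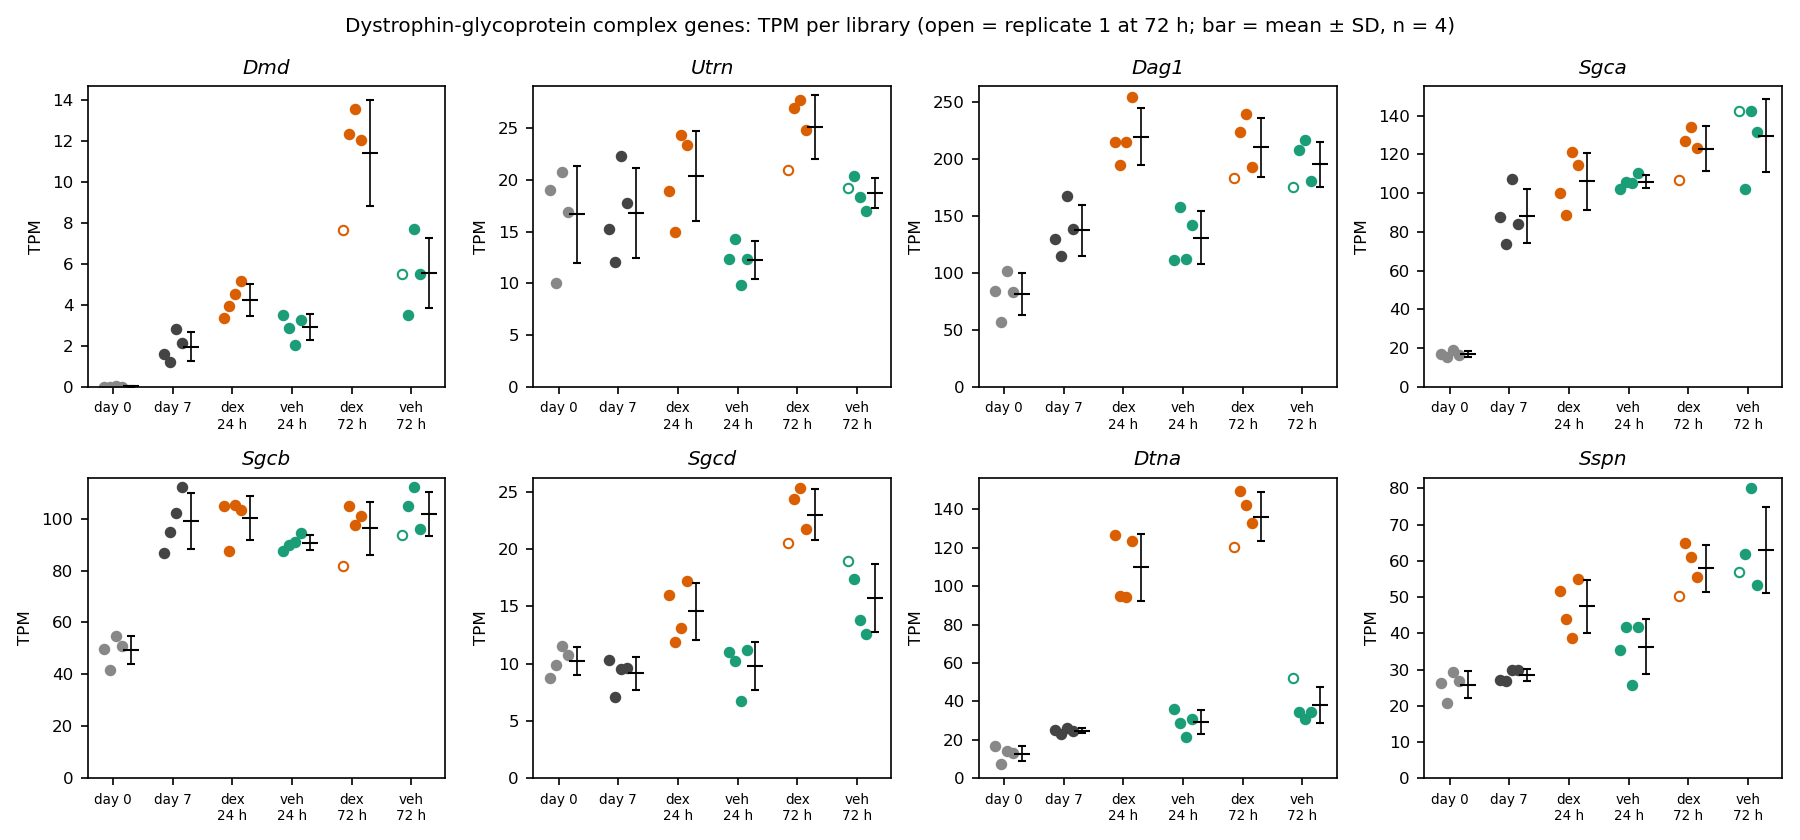
TPM of each member (y axis, linear, from 0) in every library by group (x axis, in time order, with dexamethasone left of its vehicle). Points are libraries, open points are the 72 h replicate 1 libraries, and bars show the mean ± SD (n = 4). Dmd is near 0 at day 0 and highest with dexamethasone at 72 h, Dtna stands high in both dexamethasone groups, and Sgcb varies little after day 0.

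In differentiation 5 of the 8 members were called higher, and the complex did not move as a block. Day 0 and day 7 also differ in serum (10% and 2%) and in time in culture, which cannot be told apart from differentiation here. Dystrophin mRNA was almost absent from myoblasts and present in myotubes, alpha-sarcoglycan was 5.16-fold higher, beta-sarcoglycan was 2.01-fold, dystrobrevin 1.92-fold and dystroglycan 1.69-fold higher. Utrophin, delta-sarcoglycan and sarcospan did not pass the test. The median log2 difference of the 8 was 0.61, against 0.02 over all genes tested. Of all genes tested, 30.5% were called higher and 29.8% lower in this comparison, so 5 of 8 higher is to be read against a background in which most genes changed. In these bulk samples, fewer cells of a type and less RNA per cell cannot be told apart. Markers of dividing cells (Mki67, Top2a, Ccnb1, Ccna2 and Cdk1) summed to 68.2 to 197 TPM in day 7 myotubes and 879 to 968 TPM in day 0 myoblasts. Fibroblast markers (Pdgfra, Dpt, Col1a1, Thy1 and Dcn) summed to 317 to 568 TPM in day 7 myotubes and 155 to 314 TPM in day 0 myoblasts. The part of either in these differences was not tested.

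Dmd, which encodes the actin-binding anchor of the complex, had 1.58, 1.22, 2.84 and 2.14 TPM in day 7 myotubes, against 0.00934, 0.00282, 0.0629 and 0.00601 TPM in day 0 myoblasts. All 4 myotube libraries lay far above all 4 myoblast libraries, in which the gene was close to undetected. Its log2 difference was 2.53 ± 0.17 (SE; limma adjusted p = 4.69e-11), and no fold is given because the myoblast mean of 0.0203 TPM is too low for one.

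Utrn encodes the relative that can bind the same partners. It had 15.3, 12.0, 22.3 and 17.8 TPM in day 7 myotubes, against 19.0, 10.0, 20.8 and 16.9 TPM in day 0 myoblasts. The groups overlapped over most of their range, and the log2 difference was 0.08 ± 0.11 (limma adjusted p = 0.573). Utrophin thus stood above dystrophin in every myotube library, by 7.85 to 9.84 times in TPM. The ratio of Utrn to Dmd had a geometric mean of 8.87 in day 7 myotubes and 1610 in day 0 myoblasts, where single libraries ran from 330 to 3560 because the Dmd values in the denominator are near 0. In an exact two-sided permutation test of the log2 ratio the difference gave p = 0.0286, the smallest that 4 against 4 allows, and 0.0571 after Benjamini-Hochberg adjustment over 6 pairwise comparisons.

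Dag1, the laminin receptor at the centre of the complex, had 129.6, 114.7, 167.5 and 138.7 TPM in day 7 myotubes, against 84.5, 57.0, 102.0 and 83.0 TPM in day 0 myoblasts. The groups did not overlap (log2 difference 0.56 ± 0.08, limma adjusted p = 1.88e-06). Dag1 had the highest mean of the 8 in both groups.

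Among the sarcoglycans, Sgca, the striated-muscle subunit, had 87.8, 73.6, 107.2 and 84.1 TPM in day 7 myotubes, against 17.1, 15.4, 19.2 and 16.6 TPM in day 0 myoblasts. Every myotube library exceeded every myoblast library several times over (log2 difference 1.53 ± 0.08, limma adjusted p = 3.02e-13). Sgcb, a subunit shared by muscle and other tissues, had 86.8, 94.95, 102.3 and 112.3 TPM in day 7 myotubes, against 49.7, 41.8, 54.7 and 51.0 TPM in day 0 myoblasts. These groups were also separate (log2 difference 0.73 ± 0.06, limma adjusted p = 5.5e-10). Sgcd, which pairs with beta-sarcoglycan in the core of the subcomplex, did not follow them. It had 10.3, 7.10, 9.57 and 9.59 TPM in day 7 myotubes and 8.75, 9.89, 11.5 and 10.7 TPM in day 0 myoblasts, with overlapping groups and a log2 difference of −0.06 ± 0.11 (limma adjusted p = 0.684).

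Sspn, the tetraspanin-like partner of the sarcoglycans, averaged 28.4 ± 1.69 TPM in day 7 myotubes and 25.9 ± 3.67 TPM in day 0 myoblasts (SD, n = 4 each). The groups overlapped, with a log2 difference of 0.15 ± 0.09 (limma adjusted p = 0.143). Dtna, the scaffold that binds dystrophin and the syntrophins, had 25.3, 23.0, 26.0 and 24.8 TPM in day 7 myotubes, against 16.8, 7.44, 14.0 and 13.2 TPM in day 0 myoblasts. The myotube libraries were tightly grouped and all above the myoblast libraries (log2 difference 0.67 ± 0.12, limma adjusted p = 4.85e-05).

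**Figure D2:**
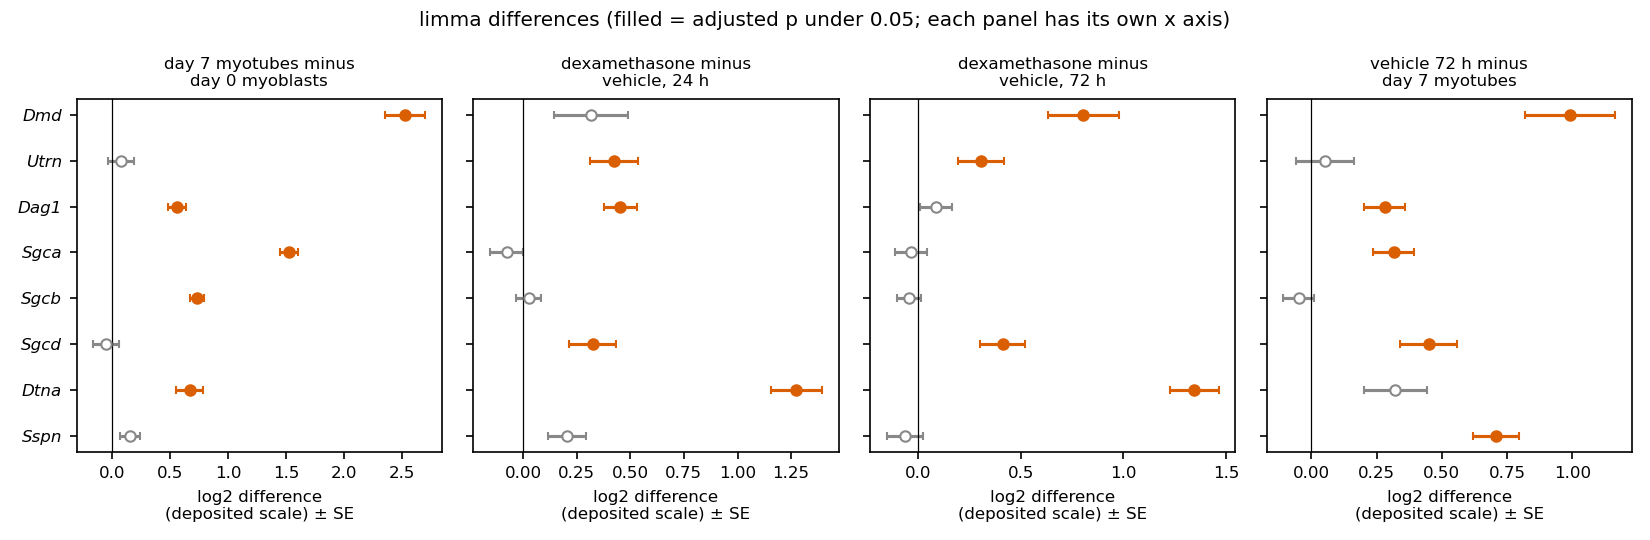
Log2 difference of each member (x axis, deposited log2 scale, ± SE from limma) in 4 comparisons, 1 panel each with its own axis. Filled points have an adjusted p under 0.05: 5 members in differentiation, 4 with dexamethasone at 24 h, 4 at 72 h, and 5 between vehicle at 72 h and day 7.

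Around these 8 genes, 5 lists gave 46 partner genes, of which 42 were tested. In differentiation 18 of the 42 were higher and 9 lower, where 30.5% of all genes were called higher and 29.8% lower. Sgce, the epsilon-sarcoglycan gene, whose product replaces alpha-sarcoglycan in many tissues outside striated muscle, averaged 35.5 ± 5.57 TPM in day 7 myotubes and 37.2 ± 5.21 TPM in day 0 myoblasts (SD, n = 4 each; limma adjusted p = 0.947). The ratio of Sgce to Sgca accordingly had a geometric mean of 0.403 in day 7 myotubes and 2.17 in day 0 myoblasts, with no overlap between libraries (exact two-sided permutation p = 0.0286, 0.171 after adjustment over 6 comparisons).

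Of 4 tested adaptor genes, which comprise 2 beta-syntrophins, the other dystrobrevin and neuronal nitric oxide synthase, 2 were higher and 1 lower. Sntb1 (beta-1-syntrophin) was 2.61-fold higher, and Sntb2 (beta-2-syntrophin) was 2.29-fold lower. Dtnb, the other dystrobrevin, did not pass, with 4.38 ± 0.393 TPM in day 7 myotubes and 6.80 ± 0.888 TPM in day 0 myoblasts. Nos1, neuronal nitric oxide synthase, averaged 9.67 ± 5.87 TPM in day 7 myotubes, with libraries from 0.946 to 13.7, against 0.406 ± 0.177 TPM in day 0 myoblasts (SD, n = 4 each; limma adjusted p = 0.000652).

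Of the 10 extracellular ligands and neighbours of dystroglycan, 2 were higher and 3 lower. Lama4, the laminin alpha-4 chain, was 3.49-fold higher, and Bgn (biglycan), a matrix proteoglycan, averaged 1460 ± 117 TPM in day 7 myotubes and 988 ± 105 TPM in day 0 myoblasts. The Bgn call (limma adjusted p = 0.0291) was lost without any of 4 single libraries (adjusted p 0.0545 to 0.074), without the filter (0.0537) and on TPM (0.058). Lamb1 and Lamc1, the beta-1 and gamma-1 laminin chains, were 2.04-fold and 1.99-fold lower. Hspg2 (perlecan) and Lama5 did not pass.

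Of 17 enzymes that build the sugars of dystroglycan, 9 were higher and 2 lower, and on TPM 4 were lower. Dpm1 and Dpm3, subunits of the enzyme that makes the mannose donor, were 3.38-fold and 1.68-fold higher. Pomgnt2, which extends the mannose that carries the laminin-binding sugar, was 2.35-fold higher. Dpm2 and Pomgnt1 did not pass. Of the 10 tested cytoplasmic and membrane partners, 5 were higher and 3 lower. Cav3 (caveolin-3), the muscle caveolin, averaged 132 ± 16.2 TPM in day 7 myotubes and 0.596 ± 0.408 TPM in day 0 myoblasts, a 221-fold difference. Dysf (dysferlin), a membrane repair protein, was 3.67-fold higher, and Itga7, the alpha subunit of the muscle laminin integrin, was 2.85-fold higher. Krt19 (keratin 19) was 2.65-fold lower, and Itgb1 and Ank2 did not pass.

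With dexamethasone for 24 h, alpha-dystrobrevin stood out among the members, at 3.74-fold the vehicle level. Dystroglycan, utrophin and delta-sarcoglycan were also called higher, at 1.68-fold, 1.67-fold and 1.49-fold. Dystrophin, alpha- and beta-sarcoglycan and sarcospan did not pass the test. The background share of genes called higher was 13.2%, and 12.2% were called lower. The members were chosen with earlier results of these data known, so 4 of 8 higher beside these shares does not test an excess. The members' median log2 difference was 0.32, against −0.01 over all genes tested. On TPM, among the 14406 genes tested in both tables, 2107 were called higher and 1152 lower, against 2143 higher and 1991 lower over all genes in the deposited log2 values. The same 4 members were called on TPM. Fibroblast markers summed to 139 to 220 TPM with dexamethasone and 296 to 357 TPM with vehicle at 24 h. Of these 5 markers, 1 was under 0.5 TPM throughout, and their part in the differences was not tested.

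Dtna had 126.5, 94.9, 94.5 and 123.5 TPM with dexamethasone at 24 h, against 36.3, 29.0, 21.4 and 30.6 TPM with vehicle. The lowest treated library had more than the highest vehicle library by a wide margin (log2 difference 1.28 ± 0.12, limma adjusted p = 8.44e-08). Dag1 had 215.6, 194.8, 215.0 and 254.6 TPM with dexamethasone, against 111.6, 158.0, 112.3 and 142.7 TPM with vehicle. These groups were separate too (log2 difference 0.45 ± 0.08, limma adjusted p = 0.000197).

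Utrn had 18.9, 14.9, 24.3 and 23.3 TPM with dexamethasone, against 12.3, 14.3, 9.84 and 12.4 TPM with vehicle at 24 h. The groups did not overlap, although the lowest treated and the highest vehicle library, both replicate 2, lay close together (log2 difference 0.42 ± 0.11, limma adjusted p = 0.00787). Dmd had 3.37, 3.92, 4.51 and 5.18 TPM with dexamethasone and 3.50, 2.85, 2.05 and 3.27 TPM with vehicle. The highest vehicle library lay inside the treated range, and the log2 difference of 0.32 ± 0.17 did not pass (limma adjusted p = 0.185). The Utrn to Dmd ratio had a geometric mean of 4.77 with dexamethasone and 4.24 with vehicle (exact two-sided permutation p = 0.314, adjusted 0.377).

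Sgcd had 16.0, 11.9, 13.2 and 17.2 TPM with dexamethasone, against 11.0, 10.2, 6.74 and 11.2 TPM with vehicle. The groups were separate by a small gap, and the log2 difference was 0.33 ± 0.11 (limma adjusted p = 0.0321). This limma call was lost without dexamethasone replicate 1 or 4 (adjusted p = 0.0931 and 0.107) and without vehicle replicate 2 or 3 (adjusted p = 0.054 and 0.155). It was also lost without the filter on low values (0.0555) and with only the compared groups fitted (0.0807).

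The other subunits of the same subcomplex lay close to their vehicle levels. Sgca averaged 106 ± 14.7 TPM with dexamethasone and 106 ± 3.31 TPM with vehicle, and Sgcb 100 ± 8.47 TPM with dexamethasone and 90.7 ± 2.85 TPM with vehicle (SD, n = 4 each; limma adjusted p = 0.492 and 0.781). Their log2 differences were −0.08 ± 0.08 and 0.03 ± 0.06. Sspn averaged 47.4 ± 7.41 TPM with dexamethasone and 36.2 ± 7.59 TPM with vehicle, with overlapping libraries and a log2 difference of 0.20 ± 0.09 (limma adjusted p = 0.0918). Without dexamethasone replicate 3, the lowest treated library at 38.8 TPM, Sspn was called (limma adjusted p = 0.0388).

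Of the 42 tested partner genes, 9 were higher and 8 lower at 24 h. On TPM the counts were 8 higher and 4 lower of 41, and 13.2% of all genes were called higher and 12.2% lower. Among the adaptor genes, 3 of 4 were higher and 1 did not pass. Dtnb was 3.40-fold, Sntb2 1.92-fold and Sntb1 1.75-fold higher (limma adjusted p = 0.000903, 0.00055 and 0.0442). The Sntb1 call was lost without any of 4 single libraries (adjusted p 0.0588 to 0.205) and on TPM (0.0604). Nos1 averaged 8.89 ± 6.09 TPM with dexamethasone and 18.2 ± 13.9 TPM with vehicle (SD, n = 4 each), which did not pass (limma adjusted p = 0.339).

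**Figure D3:**
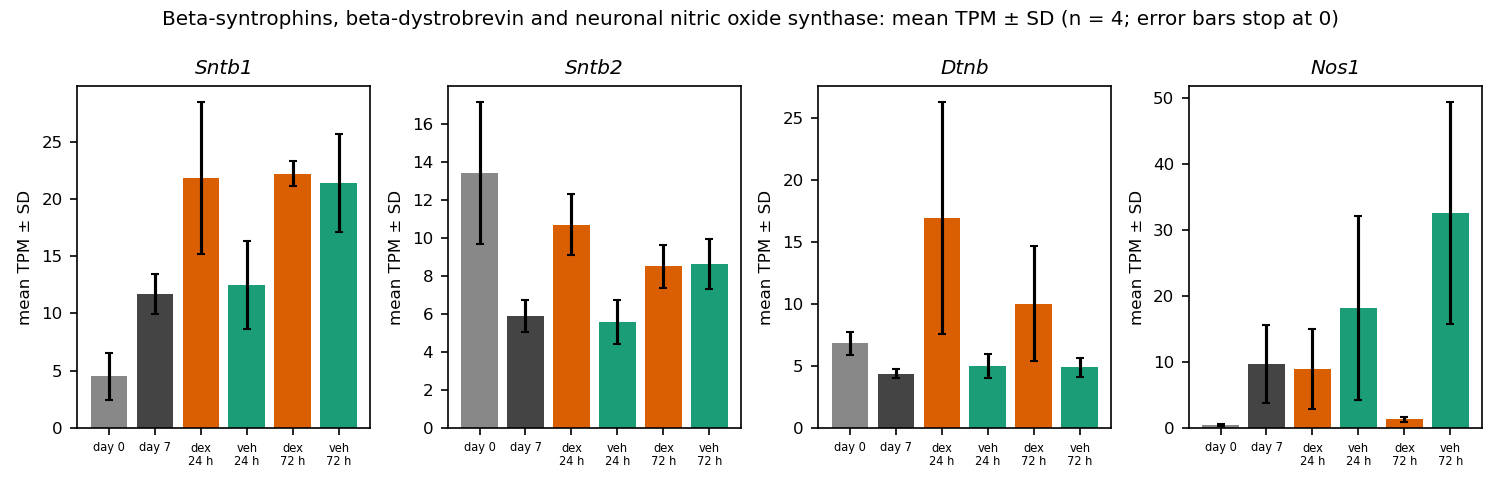
Mean TPM ± SD (n = 4; y axes from 0, 1 per gene) of the adaptor genes by group (x axis, in time order, dexamethasone left of its vehicle). Dtnb has a higher mean in both dexamethasone groups than in vehicle, and Nos1 is at 1.34 TPM with dexamethasone and 32.6 TPM with vehicle at 72 h.

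Among the extracellular partners at 24 h, 3 of 10 were higher and 2 lower, and on TPM 3 were higher and 0 lower. Lama2, the laminin alpha-2 chain of the muscle basement membrane, averaged 18.3 ± 4.86 TPM with dexamethasone and 5.76 ± 1.79 TPM with vehicle, 3.17-fold higher (limma adjusted p = 0.000434), and Lamc1 was 2.16-fold higher. Lamb2 was 1.48-fold higher and Bgn 1.61-fold lower, and each lost its call when certain single libraries were left out (adjusted p 0.0604 and 0.0635 for Lamb2, 0.0592 to 0.0876 for Bgn). The Bgn call was also lost on TPM (0.061). Lama5, the other lower gene, is outside the naming rule and is named after its values were seen. It lost its call without certain single libraries (limma adjusted p 0.0684 to 0.146). Hspg2 and Lamb1 did not pass.

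Of the 17 glycosylating enzymes, 1 was higher and 6 were lower. The higher one was B3galnt2, which adds a sugar of the laminin-binding chain, at 1.52-fold (adjusted p = 0.011, and 0.0515 without dexamethasone replicate 4, by limma). Gmppb, which makes GDP-mannose, was 1.95-fold lower, Dpm3 1.47-fold lower and Dpm2 1.23-fold lower, while Dpm1 and Pomgnt1 did not pass. Rxylt1 and B4gat1, which are outside the naming rule and are named after their values were seen, lost their lower calls on TPM (adjusted p = 0.113 and 0.152) and without any of 6 single libraries each. Of the 10 tested cytoplasmic and membrane partners, 2 were higher. Ank2 and Ank3, ankyrins that hold dystrophin and dystroglycan at the membrane, were 3.11-fold and 2.13-fold higher, and Itgb1 and Itga7 did not pass.

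With dexamethasone for 72 h, alpha-dystrobrevin was 3.58-fold higher than with vehicle, and dystrophin itself was called, at 2.05-fold. Delta-sarcoglycan was 1.47-fold and utrophin 1.34-fold higher. Dystroglycan, alpha- and beta-sarcoglycan and sarcospan did not pass the test. The background share called higher was 15.2%, and the share called lower was also 15.2%. The members' median log2 difference was 0.20, against 0.01 over all genes tested. Without both replicate 1 libraries the same 4 members were called. Dividing-cell markers summed to 85.5 to 324 TPM with dexamethasone and 10.5 to 42.9 TPM with vehicle, and fibroblast markers to 26.1 to 174 TPM with dexamethasone and 195 to 449 TPM with vehicle, and their part in the differences was not tested.

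Dmd had 7.64, 12.4, 13.5 and 12.1 TPM with dexamethasone at 72 h, against 5.49, 3.50, 7.69 and 5.52 TPM with vehicle. Only treated replicate 1 reached into the vehicle range, just under vehicle replicate 3. The log2 difference was 0.81 ± 0.17 (limma adjusted p = 0.0011), and without both replicate 1 libraries the means were 12.7 ± 0.784 TPM with dexamethasone and 5.57 ± 2.10 TPM with vehicle (SD, n = 3 each), a 2.27-fold difference with no overlap (limma adjusted p = 0.000746).

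Utrn had 20.9, 27.0, 27.7 and 24.8 TPM with dexamethasone, against 19.2, 20.4, 18.4 and 17.0 TPM with vehicle at 72 h. The groups were separate but touched nearly at treated replicate 1 (log2 difference 0.31 ± 0.11, limma adjusted p = 0.0413, and 0.0349 without both replicate 1 libraries). The call was lost on TPM (adjusted p = 0.148), without the filter on low values (0.0798), and without replicate 2, 3 or 4 of either group (0.0639 to 0.101). The Utrn to Dmd ratio ran from 2.05 to 2.74 with dexamethasone and from 2.39 to 5.83 with vehicle, and the difference did not pass (exact two-sided permutation p = 0.0571, adjusted 0.0857). The log2 difference was −0.64, and −0.74 without both replicate 1 libraries (exact permutation p = 0.1, the smallest that 3 against 3 allows).

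**Figure D4:**
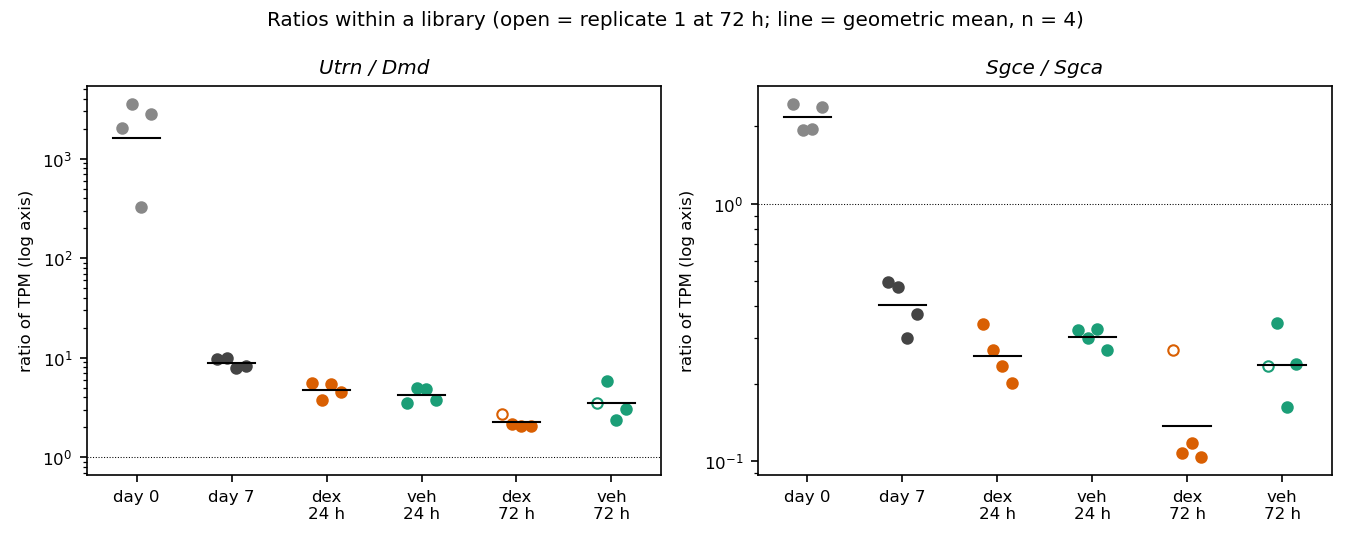
Ratio of Utrn to Dmd and of Sgce to Sgca within each library (y axes, log scale, ratio of TPM) by group (x axis, in time order, dexamethasone left of its vehicle). Points are libraries, open points the 72 h replicate 1 libraries and lines geometric means (n = 4). The Utrn to Dmd ratio is 1610 at day 0 and 2.24 with dexamethasone at 72 h, and stays above 1 in all 24 libraries.

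Dtna had 120.2, 149.5, 142.4 and 132.8 TPM with dexamethasone at 72 h, against 52.1, 34.6, 31.0 and 34.6 TPM with vehicle. Vehicle replicate 1 was the highest vehicle library and treated replicate 1 the lowest treated library, and the groups remained far apart (log2 difference 1.35 ± 0.12, limma adjusted p = 8.4e-08). Without both, the fold was 4.24 (limma adjusted p = 1.22e-08).

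Sgcd had 20.6, 24.4, 25.3 and 21.8 TPM with dexamethasone, against 19.0, 17.4, 13.8 and 12.6 TPM with vehicle at 72 h. All treated libraries exceeded all vehicle libraries (log2 difference 0.41 ± 0.11, limma adjusted p = 0.00603, and 0.00232 without both replicate 1 libraries). The rest of its subcomplex was near vehicle. Sgca averaged 123 ± 11.7 TPM with dexamethasone and 130 ± 19.0 TPM with vehicle, and Sgcb 96.3 ± 10.2 TPM with dexamethasone and 102 ± 8.51 TPM with vehicle (SD, n = 4 each), and both groups overlapped (limma adjusted p = 0.777 and 0.638). Sspn averaged 58.0 ± 6.47 TPM with dexamethasone and 63.1 ± 11.8 TPM with vehicle (limma adjusted p = 0.629). Dag1 had 183.8, 224.4, 240.1 and 193.6 TPM with dexamethasone, and 176.1, 208.2, 217.0 and 180.8 TPM with vehicle. In each replicate number the treated library was slightly higher, but the groups overlapped almost fully (log2 difference 0.09 ± 0.08, limma adjusted p = 0.436).

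The response of dystroglycan was called as different between the times in the main test. Mean Dag1 was 220 TPM at 24 h and 210 TPM at 72 h with dexamethasone, and 131 TPM at 24 h and 196 TPM at 72 h with vehicle. The vehicle mean thus moved more than the dexamethasone mean. Its log2 response at 72 h minus that at 24 h was −0.37 ± 0.11 (limma adjusted p = 0.0328, and 0.05 without both 72 h replicate 1 libraries), and it was the only member called in this test. Of all genes tested, 5.56% were called with a higher and 5.77% with a lower log2 response at 72 h. The call is weak: it was lost on TPM (adjusted p = 0.061), without the filter, under quantile normalisation, and without any of 7 single libraries (0.0533 to 0.0743). For Dmd, called at 72 h and not at 24 h, the difference between the times was 0.49 ± 0.24 and did not pass (limma adjusted p = 0.21). Dtna gave 0.07 ± 0.17 (adjusted p = 0.833), so its response was not shown to differ between 24 h and 72 h. Sspn gave −0.27 ± 0.12, with an unadjusted p under 0.05 that did not survive adjustment (0.171), and no member was called with a higher response at 72 h (0 at an unadjusted p under 0.05, 0 on TPM). On TPM the median of all genes shifted by −0.13 in this test and by 0.13 and 0.11 in the comparisons of vehicle at 72 h with vehicle at 24 h and with day 7. Among genes tested in both tables, TPM called 595 higher and 1045 lower responses, against 904 and 938 over all genes in the deposited log2 values.

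Of the 42 tested partner genes, 6 were higher and 12 lower with dexamethasone at 72 h, and 5 higher and 13 lower without both replicate 1 libraries, where 15.2% of all genes were called in each direction with all libraries. The steepest was Nos1, which averaged 1.34 ± 0.387 TPM with dexamethasone, with libraries from 0.912 to 1.68, against 32.6 ± 16.8 TPM with vehicle, with libraries from 8.56 to 47.0. It was 24.3-fold lower (limma adjusted p = 0.000317, and 0.000222 without both replicate 1 libraries). The difference between its responses at the 2 times, −2.25 on the log2 scale, did not pass (adjusted p = 0.0701), but passed without both replicate 1 libraries (0.0287). Among the other adaptors, Dtnb was 2.05-fold higher (limma adjusted p = 0.0205), while Sntb1 and Sntb2 did not pass. The Dtnb call was lost without both replicate 1 libraries (limma adjusted p = 0.0695), and also without dexamethasone replicate 3 (0.0963) or vehicle replicate 1 or 2 (0.0523 and 0.0524).

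Sgce averaged 17.8 ± 7.46 TPM with dexamethasone and 30.8 ± 5.37 TPM with vehicle at 72 h, 1.73-fold lower (limma adjusted p = 0.0045). Treated replicate 1, at 28.8 TPM, lay within the vehicle range, and the other 3 treated libraries had 12.8 to 15.8 TPM (adjusted p = 0.000126 without both replicate 1 libraries). The Sgce to Sgca ratio had a geometric mean of 0.137 with dexamethasone and 0.236 with vehicle (exact two-sided permutation p = 0.114, adjusted 0.171). The log2 difference was −0.79, and −1.12 without both replicate 1 libraries, where the ratios ran from 0.104 to 0.118 with dexamethasone and from 0.162 to 0.344 with vehicle (exact permutation p = 0.1).

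Of the extracellular partners, 2 of 10 were higher and 4 lower at 72 h, with the same counts without both replicate 1 libraries. Lama2 was 2.41-fold higher (limma adjusted p = 0.000937). Bgn averaged 786 ± 461 TPM with dexamethasone and 2090 ± 451 TPM with vehicle, 2.65-fold lower (adjusted p = 0.000105), and Lama4 was 2.08-fold lower. Lama1 was 2.21-fold lower, with 1.11 ± 1.76 TPM with dexamethasone and 2.44 ± 0.487 TPM with vehicle. Treated libraries ran from 0.113 to 3.73 TPM with a median of 0.291, and without both replicate 1 libraries Lama1 averaged 0.232 ± 0.185 TPM with dexamethasone and 2.35 ± 0.551 TPM with vehicle (SD, n = 3 each). Its call was lost without treated replicate 4 (limma adjusted p = 0.0505). Hspg2 and Lamb2 did not pass, although Hspg2 passed without treated replicate 1 (adjusted p = 0.0455).

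Of the 17 enzymes, 1 was higher and 5 were lower at 72 h, and 1 higher and 7 lower without both replicate 1 libraries. B3galnt2 was 1.59-fold higher. Gmppb was 1.98-fold, Dpm3 1.73-fold and Pomgnt2 1.34-fold lower, and Dpm1 and Rxylt1 did not pass. Of the 10 cytoplasmic and membrane partners, 2 were higher and 1 was lower. Ank3 averaged 18.0 ± 3.23 TPM with dexamethasone and 5.95 ± 1.47 TPM with vehicle, 3.02-fold higher (limma adjusted p = 1.06e-06), and Plec (plectin), a linker to intermediate filaments, was 1.38-fold higher. Itga7 was 1.33-fold lower (adjusted p = 0.0394), a call lost without both replicate 1 libraries (0.0911), on TPM (0.101) and without any of 5 single libraries. Itgb1 and Flnc did not pass. Besides Dtnb and Itga7, each partner named here as higher or lower at 72 h was also called without both replicate 1 libraries. In the test of the difference between the times, 4 partners were called (8 lower and 2 higher without both replicate 1 libraries), and all 4, Sntb2, Lama1, Agrn and Ank2, had a lower log2 response at 72 h than at 24 h. Of all 16257 genes tested, 938 were called lower and 904 higher in this test. Without both replicate 1 libraries these counts rose as well, to 1416 lower and 1050 higher.

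Members of the complex also differed between vehicle-treated myotubes at 72 h and younger myotubes. The day 7 myotubes were untreated, so against them age and exposure to the vehicle medium cannot be told apart. These comparisons share the vehicle libraries with the dexamethasone comparisons and the day 7 libraries with differentiation, so they are not independent of them. Vehicle-treated myotubes at 72 h had 5 members higher than day 7 myotubes: Sspn at 2.22-fold, Dmd at 2.85-fold, Sgcd at 1.72-fold, Sgca at 1.47-fold and Dag1 at 1.42-fold. Between these groups 8.77% of genes were called higher and 10.3% lower. Dividing-cell markers summed to 10.5 to 42.9 TPM with vehicle at 72 h and 68.2 to 197 TPM at day 7, and myotube markers to 8360 to 12700 TPM with vehicle at 72 h and 5890 to 6750 TPM at day 7, and their part was not tested. The log2 differences were 0.71 ± 0.09 for Sspn, 0.99 ± 0.17 for Dmd, 0.45 ± 0.11 for Sgcd, 0.32 ± 0.08 for Sgca and 0.28 ± 0.08 for Dag1 (limma adjusted p = 0.000103, 0.0015, 0.00836, 0.00927 and 0.0171). All 5 were called without both replicate 1 libraries, and Sgca was not called with only the compared groups fitted (adjusted p = 0.0506). Sspn had 56.9, 61.9, 80.04 and 53.4 TPM with vehicle at 72 h, against 27.2, 26.7, 29.8 and 29.96 TPM at day 7, with a wide gap between the groups. Sgca had 142.3, 102.2, 142.4 and 131.8 TPM with vehicle at 72 h, and vehicle replicate 2 lay within the day 7 range given above. Sspn, Dmd, Sgcd and Dag1, and also Dtna, which was not called, had all vehicle libraries above all day 7 libraries, as did 15.6% of the 13353 genes compared, while 7.97% had all below.

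The Dag1 call at 72 h was lost without day 7 replicate 2 or vehicle replicate 3 (adjusted p = 0.0622 and 0.0699). Dtna was not called (adjusted p = 0.0614) but was on TPM (0.0482). Utrn and Sgcb did not pass, with log2 differences of 0.05 ± 0.11 and −0.05 ± 0.06. The Utrn to Dmd ratio had a geometric mean of 3.50 with vehicle at 72 h and 8.87 at day 7 (exact two-sided permutation p = 0.0286, adjusted 0.0571). On TPM, 1546 genes were called higher and 978 lower among those tested in both tables, against 1426 and 1678 over all genes in the deposited log2 values. Of the 42 tested partners, 6 were higher and 3 lower with vehicle at 72 h than at day 7, and 8 higher and 2 lower without both replicate 1 libraries.

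Of the members, 2 were called between the vehicle groups themselves. Between vehicle at 72 h and at 24 h, Sspn was 1.74-fold and Dag1 1.49-fold higher (log2 differences 0.47 ± 0.09 and 0.31 ± 0.08, limma adjusted p = 0.0196 and 0.036), against 2.67% of all genes called higher and 1.69% lower. Both calls were also made without both replicate 1 libraries (0.0413 and 0.0486). The Sspn call was lost without vehicle replicate 3 at 24 h or at 72 h (0.11 and 0.0633), and the Dag1 call without any of 5 single libraries (0.0592 to 0.168) and on TPM (0.0533). On TPM, 218 genes were called higher and 51 lower among those tested in both tables, against 434 and 275 in the deposited log2 values. Dmd was 1.90-fold and Sgcd 1.60-fold higher without passing (adjusted p = 0.0636 and 0.051), and Sgcd was called on TPM (0.0463) and without vehicle 72 h replicate 4 (0.0326).

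Between vehicle at 24 h and day 7, 0 of 8 members were called by limma and 0 on TPM, while 3 were higher and 1 lower at an unadjusted p under 0.05. The background of adjusted calls was small as well, with 0.0984% of genes called higher and 0.111% lower. These shares are not a background for the unadjusted counts of 3 and 1. The share of all genes at an unadjusted p under 0.05 was not computed, so no excess of members can be read from them. Sspn was called higher without vehicle replicate 3 (adjusted p = 0.0405). The lower one was Utrn, with a log2 difference of −0.28 ± 0.11.

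Ordered by mean TPM over the 6 groups, the members differed in where gaps lay between neighbouring groups. Dmd had its lowest mean at day 0, and then day 7, vehicle at 24 h, dexamethasone at 24 h, vehicle at 72 h and dexamethasone at 72 h followed in that order. Only the step above day 0 was free of overlap, since libraries of each other pair of neighbours overlapped. Utrn was lowest with vehicle at 24 h (12.2 ± 1.84 TPM) and highest with dexamethasone at 72 h (25.1 ± 3.05 TPM), and every neighbouring pair overlapped. Sgca and Sgcb had day 0 as the separate lowest group, and their other 5 groups overlapped from neighbour to neighbour.

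For Dag1 the order had gaps above day 0 and between day 7 and vehicle at 72 h, with both dexamethasone groups and vehicle at 72 h together at the top (196 to 220 TPM in mean). Dtna had gaps above day 0 and between vehicle at 72 h (38.1 ± 9.51 TPM) and dexamethasone at 24 h (110 ± 17.5 TPM). Sgcd had day 7, vehicle at 24 h and day 0 together at 9.14 to 10.2 TPM, then dexamethasone at 24 h with vehicle at 72 h, and dexamethasone at 72 h separate at 23.0 ± 2.21 TPM. Sspn overlapped from each group to the next, between 25.9 TPM at day 0 and 63.1 TPM with vehicle at 72 h.

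Profiles were also compared with those of 13152 genes over the 24 libraries, by the root mean square difference of log2(TPM + 0.1) after centring each gene on its own mean, where a smaller value means a more similar course. The nearest gene outside the complex was Lrrc2 for Dmd (0.299, against a spread of 2.11 for Dmd about its own mean), Ago2 for Utrn (0.109), Mtmr1 for Dag1 (0.12) and Tpm2, a muscle tropomyosin, for Sgca (0.119, against a spread of 1.02). For Sgcb it was Cdc37l1 (0.0974), for Sgcd Cacna2d1, a calcium channel subunit (0.195), and for Sspn Gid4 (0.15). For Dtna it was Fbxo32, the ubiquitin ligase atrogin-1, at 0.422, against a spread of 1.23. The second nearest genes were 3425401B19Rik for Dmd, Ranbp2 for Utrn, Socs7 for Dag1, 9330102E08Rik for Sgca, Gabarapl2 for Sgcb, Tmem170b for Sgcd and Cds2 for Sspn. Members were not each other's nearest genes. The closest other member ranked between 138 (Dag1 for Sspn) and 1631 (Sgcd for Utrn) among all genes compared.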

How the data were processed

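Both deposited tables were made from the same 24 libraries. The TPM table, as deposited, holds 1 estimate per gene and sums to 1000000 per library. The other table holds log2-scale normalised expression values deposited by the authors, from −2.33 to 20.06, and its normalisation is not given in the sources used here. Salmon, DESeq, kallisto 0.51.1 and the mouse build GRCm39 are named per the submitters' processing notes, without role or order. Neither table holds read counts, so depth is unknown, no counting interval is given, and a test for counts was not used.

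Genes were matched by Ensembl ID, and symbols came from a gene name table. limma 3.58.1 (R 4.3.3) was fitted with an intensity trend to the log2 values of all 24 libraries, with 1 mean per group, so all groups share 1 estimate of the spread. Genes needed a value of at least 10 (2 to the power of the deposited value) in at least 4 libraries. P-values were Benjamini-Hochberg adjusted over 16257 genes. Levels are mean TPM ± SD, folds are ratios of mean TPM where the lower mean was at least 0.5, and limma on log2(TPM + 0.1), for genes with at least 0.5 TPM in at least 4 libraries, was the main alternative. The log2 fold of a low gene is understated by the pseudocount. Ratios of 2 genes used an exact two-sided permutation test over libraries, whose smallest p is 0.0286. Tested on simulated data with 100 genes changed at each size, the differentiation test found 93% of changes of 1 on the log2 scale and 60% of changes of 0.5, with 14 unchanged genes called. The 24 h test found 88% and 60%, and the 72 h test 89% and 45%. The simulations changed far fewer genes than were called in the data and drew the noise of each gene independently. The rates in the data may therefore differ. These sizes are on the shrunken deposited scale, so they stand for larger changes in TPM.

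Same-numbered libraries deviated together in differentiation (correlations 0.14 to 0.21) and at 24 h (0.2 to 0.39) and 72 h (0.12 to 0.34) of dexamethasone. Dexamethasone replicate 2 at 72 h correlated more with a vehicle library of another number than with its own (0.12). This pairing was read from the data and not from the labels. The main tests did not use it, and a replicate block was an alternative. The other alternatives were log2(TPM + 1), no filter, quantile normalisation, fitting only the compared groups, leaving out each library, and leaving out both 72 h replicate 1 libraries. The members, the partner lists and the rule for naming partners (up to 4 called with the largest fold and up to 2 not passing with the highest TPM, per list and comparison) were chosen with earlier results of these data known. Some partner genes are not reported here and are left out of the list counts. Dtna lies on a chromosome whose sequence is not printed. Analysis used Python 3.11.15, numpy 2.4.6, pandas 2.3.3, scipy 1.17.1 and matplotlib 3.10.9.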

Additional observations from a re-analysis of the deposited data

Results flagged for a closer look

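Of 48 groups of 4 libraries (8 members in 6 groups), 2 held a library far from the other 3, where chance flags about 1 in 20. Dmd was at 0.0629 TPM in day 0 myoblast replicate 3, against 0.00282 to 0.00934 TPM in the other 3 day 0 libraries, all close to undetected. Sgcb was at 87.5 TPM in dexamethasone 24 h replicate 2, against 103.2 to 105.1 TPM in the other 3.

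For 5 genes the log2 response to dexamethasone at 72 h was lower than that at 24 h in a limma test of the difference itself. Of all genes tested, 5.77% were called lower in that test. Dag1 gave −0.366 (adjusted p = 0.0328), Sntb2 −0.575 (0.0178), Lama1 −2.763 (0.00665), Agrn −0.578 (0.0075) and Ank2 −0.809 (0.0185). The Ank2 call was lost without dexamethasone 72 h replicate 2 (0.05) or 4 (0.0526), and the Dag1 call in the cases given with that result. Sntb2 averaged 10.7 ± 1.61 TPM with dexamethasone and 5.58 ± 1.15 TPM with vehicle at 24 h, and 8.52 ± 1.13 TPM with dexamethasone and 8.64 ± 1.31 TPM with vehicle at 72 h (SD, n = 4 each). Agrn, which encodes agrin, a dystroglycan ligand, overlapped between groups at 24 h, with 16.4 to 22.3 TPM with dexamethasone and 18.8 to 24.8 TPM with vehicle, and at 72 h averaged 11.6 ± 3.27 TPM with dexamethasone and 23.1 ± 1.23 TPM with vehicle.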

How the results depend on the processing

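Over 56 member and comparison pairs, 880 alternative values held 41 lost and 11 gained calls, in 13 of the pairs, and none turned a called direction. Over 210 partner and comparison pairs, 3392 values held 125 lost and 86 gained calls. The Dag1 difference between the 2 times gave 0 members called on log2(TPM + 0.1), on log2(TPM + 1), without the filter and under quantile normalisation, against 1. Between vehicle at 24 h and day 7, 34 genes were called, against 4 on log2(TPM + 0.1), 5 on log2(TPM + 1), 4 without the filter and 0 with only the compared groups fitted. Between vehicle at 72 h and 24 h, 709 genes were called, against 270 and 264 on the TPM scales, 94 without the filter, 4 with only the compared groups, and 380 without both 72 h replicate 1 libraries, and the 2 called members became 1 without the filter and 0 with only the compared groups. The cause was not tested.

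With the replicate block, 5, 4 and 4 members were called in differentiation and at 24 h and 72 h of dexamethasone, and no member call changed there. For the ratios in differentiation, a sign-flip test of same-numbered libraries gave adjusted p = 0.188 for Utrn to Dmd and 0.3 for Sgce to Sgca. Its smallest unadjusted p is 0.125, so no ratio could pass it. In the vehicle comparisons the libraries share only a number (correlations −0.25 to 0.56). There the block gave 109 genes between 24 h and day 7, 1067 genes and 4 members between 72 h and 24 h, and 6 members between 72 h and day 7.

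Leaving out 1 library at a time gave 9023 to 9604 genes and 5 members in differentiation, and 2706 (without dexamethasone replicate 4) to 4358 genes and 3 to 5 members at 24 h. It gave 3892 to 5472 genes and 3 to 4 members at 72 h, and 1241 to 2686 genes and 0 to 1 members for the difference between the times. It gave 0 to 328 genes and 0 to 1 members for vehicle at 24 h against day 7, with 328 without vehicle replicate 3, and 2 (without vehicle 24 h replicate 3) to 1751 genes (without vehicle 24 h replicate 2) and 0 to 3 members for vehicle at 72 h against 24 h. For vehicle at 72 h against day 7 it gave 1207 (without vehicle replicate 3) to 3245 genes and 4 to 5 members. The log2 Utrn to Dmd ratio difference ran from −8.27 to −7.13 in differentiation and from −0.83 to −0.40 at 72 h. Dmd near 0 TPM at day 0 limits that ratio most: with 0.1 TPM added its difference was −4.02.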
